A study of Mus musculus with 12 samples.

Results

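The subject is 7 receptors of the tumour necrosis factor (TNF) receptor superfamily that T cells carry: Tnfrsf4 (OX40), Tnfrsf9 (4-1BB), Tnfrsf18 (GITR), Cd27, Tnfrsf1b (TNF receptor type 2), Tnfrsf25 (death receptor 3) and Fas. They were found by symbol, and 7 of 7 stand among the 23361 gene rows of the deposited table. RNA was sequenced from regulatory T cells (Tregs) in 12 mouse libraries, in a study of Lag3, an inhibitory receptor that binds MHC class II, in autoimmune diabetes. The 4 groups, with 3 libraries each, were Lag3-deficient Tregs from pancreatic islets, Wt Tregs from islets, Lag3-deficient Tregs from non-draining lymph nodes (NDL) and Wt Tregs from NDL. The labels give a tissue, a replicate number and a genotype, written as Lag3 or Wt, and call the material cytoplasmic RNA. Lag3 libraries are called Lag3-deficient here as the label stands against Wt, and the label names no allele. The sources used here name no mouse strain, age, sort or treatment. Nothing in the labels says that replicates came from separate animals, so p-values measure the spread between these libraries, which may be technical.

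Receptors of this superfamily are trimers that bind trimeric ligands. Most of those studied here recruit TRAF adaptors and activate NF-kB, which adds a survival and proliferation signal to that of the T cell receptor. Tregs are known for high OX40, GITR and TNF receptor type 2, and 4-1BB appears on T cells after antigen contact. Fas and death receptor 3 carry a death domain in their cytoplasmic part. Fas uses it to start caspase activation, while death receptor 3 costimulates T cells that meet its ligand TL1A (Tnfsf15).

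Of the 7 genes, 5 lie on mouse chromosome 4 (build GRCm38, GENCODE annotation). Tnfrsf1b is at chr4:145213463-145246870 on the minus strand. On the plus strand follow Tnfrsf9 at chr4:150914562-150946102, Tnfrsf25 at chr4:152115934-152120119, Tnfrsf4 at chr4:156013843-156016612 and Tnfrsf18 at chr4:156026164-156028895. Tnfrsf4 and Tnfrsf18 are neighbours with 9551 bases between them. Cd27 is at chr6:125232622-125237010 on the minus strand, 320916 bases from Lag3 itself, and Fas is at chr19:34290666-34327772 on the plus strand. An exon of Tnfrsf18 shares 334 bases with the antisense gene Gm16008, and without a stated strand setting the reads of those genes cannot be told apart. An exon of Cd27 shares 129 bases with Mir8113 on the same strand.

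The promoters shown are those of Tnfrsf9 and Tnfrsf25, whose levels differed most between islets and NDL, and of Fas, the other promoter with a motif match. Each runs from 250 bases before a RefSeq start site to 50 bases after it (GRCm38.p6, 5′ to 3′ on the plus strand). Capitals mark an NF-kB consensus match or the AP-1 motif TGANTCA, both searched on both strands.
Tnfrsf9, second start, chr4:150927749-150928048: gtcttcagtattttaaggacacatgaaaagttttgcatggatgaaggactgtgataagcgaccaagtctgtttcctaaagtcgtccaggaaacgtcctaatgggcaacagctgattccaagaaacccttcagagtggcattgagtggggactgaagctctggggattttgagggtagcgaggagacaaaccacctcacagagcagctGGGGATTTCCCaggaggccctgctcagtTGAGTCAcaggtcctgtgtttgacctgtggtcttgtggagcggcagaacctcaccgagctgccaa
Fas, chr19:34290409-34290708: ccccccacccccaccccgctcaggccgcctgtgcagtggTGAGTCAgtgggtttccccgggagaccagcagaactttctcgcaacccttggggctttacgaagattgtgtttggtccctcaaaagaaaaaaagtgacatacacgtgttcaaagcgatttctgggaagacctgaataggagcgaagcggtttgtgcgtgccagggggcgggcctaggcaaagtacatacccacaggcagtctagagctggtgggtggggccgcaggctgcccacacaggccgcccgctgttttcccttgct
Tnfrsf25, first start, chr4:152115684-152115983: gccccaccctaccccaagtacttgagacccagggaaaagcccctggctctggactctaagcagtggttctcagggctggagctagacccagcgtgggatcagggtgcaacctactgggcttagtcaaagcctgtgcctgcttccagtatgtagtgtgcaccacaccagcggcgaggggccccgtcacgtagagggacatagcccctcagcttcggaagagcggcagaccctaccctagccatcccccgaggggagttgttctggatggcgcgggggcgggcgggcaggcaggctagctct

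Of the 9 promoter windows of these genes, the second Tnfrsf9 start alone held an NF-kB consensus. It had 2 overlapping matches, which begin 43 and 42 bases before the start, and an AP-1 motif 15 bases before it. The Fas window held the AP-1 motif 211 bases before its start, and the Tnfrsf25 window held neither set of letters. Among 32851 mouse promoters of the same length, 4.505% (1480) held the NF-kB consensus and 7.808% (2565) the AP-1 motif.

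Levels are given in CPM, counts per 1000000 after scaling between libraries, where 1 CPM is about 15.3 of the deposited rescaled counts. The deposited totals lay between 15232498 and 15370098 in every library, because the authors had already rescaled the counts, so the sequencing depth cannot be read from them. The libraries of a group are called 1a, 2 and 1b, since the column headers use the number 1 for 2 columns of each group. The 4 columns called 1b had an Rn45s (ribosomal RNA) share of 1.26 to 1.68%, while the remaining 8 columns had 0.149 to 0.571%. Values of a group are given in the order 1a, 2, 1b throughout. Lag3 was listed at 1, 0 and 0 rescaled counts in the Lag3-deficient islet group, against 40, 48 and 120 in the Wt islet group. In NDL it was listed at 1, 0 and 3 in Lag3-deficient and at 2, 5 and 6 in Wt libraries, too little in either genotype to check the labels there. Foxp3, the transcription factor that defines Tregs, lay at 224 to 483 CPM in islet libraries and at 311 to 654 CPM in NDL libraries. Of 10868 genes tested with limma on log2(CPM + 1), 100 passed an adjusted p under 0.05 for islet against NDL averaged over genotypes, 89 of them higher in islets.

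All 7 receptors were expressed and could be tested, and 0 of 7 passed the adjusted threshold in any comparison. For islet against NDL the shares of all tested genes past it were 0.12% in Lag3-deficient Tregs, 0.184% in Wt Tregs and 0.92% averaged over genotypes. No gene passed for Lag3-deficient against Wt, a background of 0% in islets, in NDL, averaged over tissues and for how the genotype effect differed between tissues. At an unadjusted p under 0.05, Tnfrsf25 stood out for tissue in Lag3-deficient Tregs (background 8.71%), and Tnfrsf9 and Tnfrsf25 in Wt Tregs (background 7.53%). Averaged over genotypes, Tnfrsf9, Tnfrsf1b and Tnfrsf25 did so (3 of 7, background 11.3%). For genotype, 0 of 7 did in islets (background 5.74%), in NDL (2.72%), averaged (3.68%) or as a difference between tissues (4.02%). Without the 1b columns, the difference between tissues did so for Tnfrsf4 (-2.25 ± 0.87), Tnfrsf9 (-3.14 ± 1.17) and Fas (-2.53 ± 1.02). Fas also did so in NDL (1.96 ± 0.72). For islet against NDL, Tnfrsf4, Tnfrsf25 and Fas then did so in Lag3-deficient Tregs. Tnfrsf9, Tnfrsf25 and Cd27 did in Wt Tregs. Averaged over genotypes, Tnfrsf4 and Tnfrsf25 did, while Tnfrsf9 and Tnfrsf1b no longer did (unadjusted p = 0.113 and 0.067, limma). Of 10325 genes then tested, 683 did so for the difference of genotype effects between tissues and 216 for genotype in NDL. For islet against NDL, 1531 did so in Lag3-deficient Tregs, 733 in Wt Tregs and 1508 averaged over genotypes. No receptor passed the adjusted threshold without these columns. The median log2 difference of the 7 receptors, islet minus NDL averaged over genotypes, was 0.15, against -0.043 over all tested genes. It was -0.31 in Lag3-deficient Tregs and 0.37 in Wt Tregs, against -0.15 and 0.095 over all tested genes. In bulk samples, fewer cells of a type and less RNA per cell cannot be told apart.

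**Figure D1:**
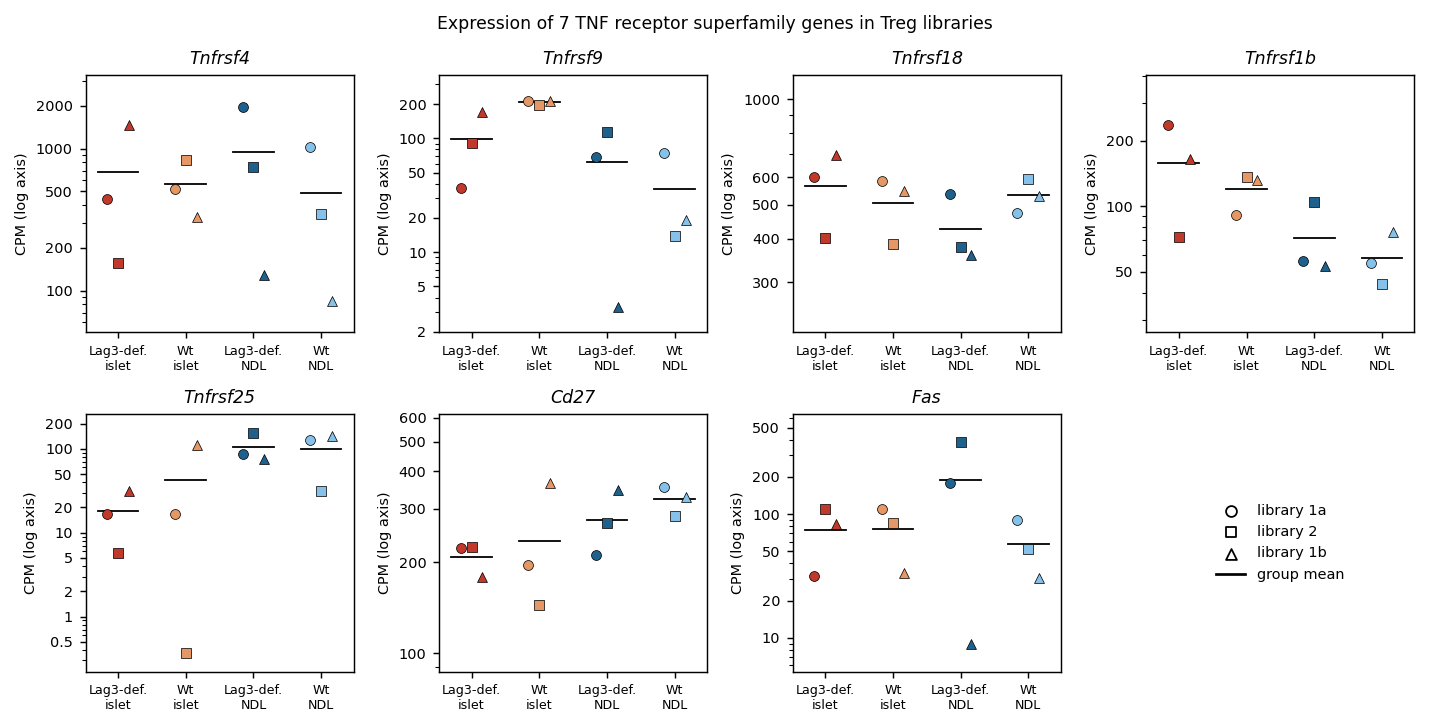
Level of each receptor in CPM (log axis) in every library of the 4 groups, with circles for library 1a, squares for 2, triangles for 1b and a bar at the group mean (n = 3). Tnfrsf18 stays between 360.1 and 693 CPM in all 12 libraries, whereas Tnfrsf4 spans 84.8 to 1958 CPM.

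Per length of exon, mean levels over the 12 libraries were 491 CPM per kb for Tnfrsf4, 333 for Tnfrsf18 and 112 for Cd27. Tnfrsf4 and Tnfrsf18 could not be ordered: their medians were 350.02 and 350.3 CPM per kb, and Tnfrsf4 was the higher in 5 libraries and Tnfrsf18 in 7. Mean levels of the others were lower. Fas had 48.1, Tnfrsf9 37.2, Tnfrsf25 29.1 and Tnfrsf1b 26.7 CPM per kb. Group means put Tnfrsf4 above Tnfrsf18 in all 4 groups, but in Wt NDL without library 1a they were 157 and 368 CPM per kb. In 2 libraries, the 1b columns of NDL, Tnfrsf4 lay below Cd27 as well.

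Tnfrsf4 encodes OX40, the receptor for OX40 ligand (Tnfsf4). It stood at 439, 156 and 1462 CPM in the Lag3-deficient islet group, then at 516, 831 and 333 CPM in the Wt islet group. In NDL it stood at 1958, 748 and 129.6 CPM in Lag3-deficient and at 1035, 345 and 84.8 CPM in Wt libraries. Every group overlapped every other, and both the highest and the lowest of the 12 libraries were NDL libraries. The difference, islet minus NDL, was -0.31 ± 0.90 (log2, SE) in Lag3-deficient and 0.74 ± 0.90 in Wt Tregs, with 95% intervals of -2.19 to 1.57 and -1.14 to 2.62 (limma, adjusted p = 0.945 and 0.942). Lag3-deficient minus Wt was -0.17 ± 0.90 in islets and 0.88 ± 0.90 in NDL.

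The spread of Tnfrsf4 between libraries of a group was wide for so abundant a gene. Its residual SD was 1.60 on the log2 scale, and of the 240 genes within 0.5 log2 units of its average level, itself included, 0 had a larger one. Its lowest and highest libraries differed 23.1-fold. The 1b columns and the others ran in opposite directions in Lag3-deficient Tregs. In the 1b columns islet minus NDL was 3.49 in Lag3-deficient and 1.96 in Wt Tregs. Each is a single islet library minus a single NDL library, so it has no SE. Without the 4 columns the values were -2.17 ± 0.62 and 0.08 ± 0.62. Averaged over genotypes the difference was 0.22 ± 0.64 with all libraries and -1.05 ± 0.44 without the 1b columns (unadjusted p = 0.0334, adjusted p = 0.299, limma). The 1b columns differ from the others by their Rn45s share, and the labels give no batch.

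Tnfrsf18, which encodes GITR and lies beside Tnfrsf4, was the steadiest of the 7. It stood at 599, 402 and 693 CPM in the Lag3-deficient islet group, then at 587, 385 and 549 CPM in the Wt islet group. NDL libraries gave 538, 379 and 360.1 CPM in Lag3-deficient and 474, 592 and 530.0 CPM in Wt Tregs. All groups overlapped, and the highest library exceeded the lowest 1.92-fold. Its residual SD was 0.31, and 189 of the 219 genes within 0.5 log2 units of its level had a larger one. Islet minus NDL was 0.39 ± 0.36 in Lag3-deficient and -0.087 ± 0.36 in Wt Tregs (log2, limma, adjusted p = 0.795 and 0.992). The 95% intervals, -0.36 to 1.15 and -0.84 to 0.67, are the narrowest among the 7 receptors. Lag3-deficient minus Wt was 0.14 ± 0.36 in islets and -0.34 ± 0.36 in NDL.

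Tnfrsf9 encodes 4-1BB, an activation-induced receptor of T cells. Its values were 36.5, 91.1 and 172 CPM in the Lag3-deficient islet group, against 212, 196 and 214 CPM in the Wt islet group. NDL libraries gave 68.3, 114 and 3.29 CPM in Lag3-deficient and 73.7, 13.8 and 19.2 CPM in Wt Tregs. The 3 Wt islet libraries agreed within 1.09-fold and lay above all 9 others. The lowest value of the gene, in Lag3-deficient NDL library 1b, corresponds to 44 rescaled counts. Group means were 99.7 ± 68.0 CPM in Lag3-deficient islets, 207 ± 9.95 in Wt islets, 61.8 ± 55.5 in Lag3-deficient NDL and 35.6 ± 33.1 in Wt NDL (SD, n = 3).

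Islet minus NDL for Tnfrsf9 was 1.37 ± 0.98 (log2, SE) in Lag3-deficient Tregs, with a 95% interval of -0.67 to 3.42 (limma, adjusted p = 0.729). In Wt Tregs it was 2.89 ± 0.98, a 7.39-fold higher CPM + 1 in islets, with an interval of 0.84 to 4.93 (unadjusted p = 0.00818, adjusted p = 0.388). Islet and NDL libraries did not overlap in Wt Tregs, as was so for 14% of all tested genes. Averaged over genotypes the difference was 2.13 ± 0.69 (unadjusted p = 0.00613, adjusted p = 0.197). Lag3-deficient minus Wt was -1.31 ± 0.98 in islets (interval -3.36 to 0.74, adjusted p = 0.953), where all 3 Lag3-deficient libraries lay below all 3 Wt libraries (background of such genes 9.32%). In NDL it was 0.20 ± 0.98 with overlapping libraries. The tissue difference in Wt and the genotype difference in islets share the Wt islet libraries. The genotype effect differed between tissues by -1.51 ± 1.39 (interval -4.41 to 1.39, adjusted p = 1).

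Library Lag3-deficient NDL 1b set the sign of the tissue difference of Tnfrsf9 in Lag3-deficient Tregs, which was -0.084 without it. Without all 4 of the 1b columns the tissue difference was -0.57 ± 0.83 in Lag3-deficient and 2.57 ± 0.83 in Wt Tregs. The averaged difference was then 1.00 ± 0.58 (unadjusted p = 0.113, adjusted p = 0.462, limma). In the 1b columns alone, a single islet library minus a single NDL library gave 5.33 in Lag3-deficient and 3.41 in Wt Tregs.

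Cd27 encodes the receptor for CD70, expressed by resting T cells. It stood at 223, 224 and 179 CPM in the Lag3-deficient islet group, then at 196, 145 and 364 CPM in the Wt islet group. NDL values were 212, 269.6 and 347 CPM in Lag3-deficient and 356, 284 and 328 CPM in Wt Tregs. Values were close together, with a residual SD of 0.40, and the groups overlapped in each of the 4 comparisons of a pair of groups. Islet minus NDL was -0.38 ± 0.43 in Lag3-deficient and -0.56 ± 0.43 in Wt Tregs (limma, adjusted p = 0.83 and 0.863). Averaged over genotypes it was -0.47 ± 0.30, with a 95% interval of -1.10 to 0.16. Lag3-deficient minus Wt was -0.070 ± 0.43 in islets and -0.25 ± 0.43 in NDL.

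Tnfrsf1b encodes TNF receptor type 2, through which TNF is known to expand Tregs. Its values were 238, 72.4 and 164 CPM in the Lag3-deficient islet group, then 90.8, 136 and 132 CPM in the Wt islet group. NDL libraries gave 55.9, 105 and 53.3 CPM in Lag3-deficient and 54.7, 43.9 and 75.9 CPM in Wt Tregs. In Wt Tregs all islet libraries lay above all NDL libraries, and 14% of all tested genes did not overlap there in either direction. In Lag3-deficient Tregs islet library 2 lay below NDL library 2. The tissue difference was of the same size in both genotypes, 1.05 ± 0.58 in Lag3-deficient and 1.04 ± 0.58 in Wt Tregs (log2, islet minus NDL). Averaged over genotypes it was 1.04 ± 0.41, a 2.06-fold higher CPM + 1 in islets, with a 95% interval of 0.19 to 1.90 (limma, unadjusted p = 0.0198, adjusted p = 0.318). Without the 1b columns it was 0.95 ± 0.47 (limma, unadjusted p = 0.067). The genotype effects were 0.26 ± 0.58 in islets and 0.26 ± 0.58 in NDL, and their difference was 0.0061 ± 0.82, with an interval of -1.71 to 1.73.

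Tnfrsf25 encodes death receptor 3, the TL1A receptor of T cells. It stood at 16.7, 5.67 and 31.4 CPM in the Lag3-deficient islet group, then at 16.6, 0.367 and 110 CPM in the Wt islet group. NDL libraries gave 87.1, 154 and 75.9 CPM in Lag3-deficient and 126, 31.2 and 141 CPM in Wt Tregs. Within each genotype islet values were the lower ones except in Wt islet library 1b, and Wt islet library 2 held 5 rescaled counts. Lag3-deficient islet and NDL libraries did not overlap, as was so for 12.7% of all tested genes, whereas Wt libraries did. Group means were 17.9 ± 12.9 CPM in Lag3-deficient islets, 42.3 ± 59.1 in Wt islets, 106 ± 42.0 in Lag3-deficient NDL and 99.5 ± 59.6 in Wt NDL (SD, n = 3).

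Islet minus NDL for Tnfrsf25 was -2.70 ± 1.19 in Lag3-deficient Tregs (interval -5.18 to -0.22, limma, adjusted p = 0.541) and -2.59 ± 1.19 in Wt Tregs (interval -5.07 to -0.11, adjusted p = 0.634). Averaged over genotypes it was -2.64 ± 0.84 (interval -4.40 to -0.89, unadjusted p = 0.00518, adjusted p = 0.187). It did not pass the threshold. Leaving out Wt islet library 1b gave -3.39 ± 0.77 and an adjusted p of 0.0453, the 1 alternative of the 22 tried in which a receptor passed. Without Wt islet library 2 it was -1.81 ± 0.66 (adjusted p = 0.305), and without all 1b columns -3.58 ± 0.94 (adjusted p = 0.134). The 1b columns alone, a single islet library minus a single NDL library, gave -1.25 in Lag3-deficient and -0.36 in Wt Tregs. Between genotypes, Lag3-deficient minus Wt was 0.18 ± 1.19 in islets and 0.28 ± 1.19 in NDL.

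Fas, the death receptor for Fas ligand, stood at 31.4, 109 and 82.6 CPM in the Lag3-deficient islet group, then at 110, 84.9 and 33.2 CPM in the Wt islet group. NDL libraries gave 179, 379 and 8.91 CPM in Lag3-deficient and 89.9, 52.0 and 30.3 CPM in Wt Tregs. The Lag3-deficient NDL group held both the highest and the lowest of the 12 values, 42.6-fold apart. Islet minus NDL was -0.39 ± 1.00 in Lag3-deficient and 0.37 ± 1.00 in Wt Tregs (log2, limma, adjusted p = 0.934 and 0.988). Lag3-deficient minus Wt was -0.041 ± 1.00 in islets and 0.72 ± 1.00 in NDL, with an interval of -1.36 to 2.80 in NDL. Here too the 1b columns ran the other way in Lag3-deficient Tregs. The tissue difference was 3.08 in these columns, a single islet library minus a single NDL library, and -2.10 ± 0.72 without them (limma, adjusted p = 0.229).

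**Figure D2:**
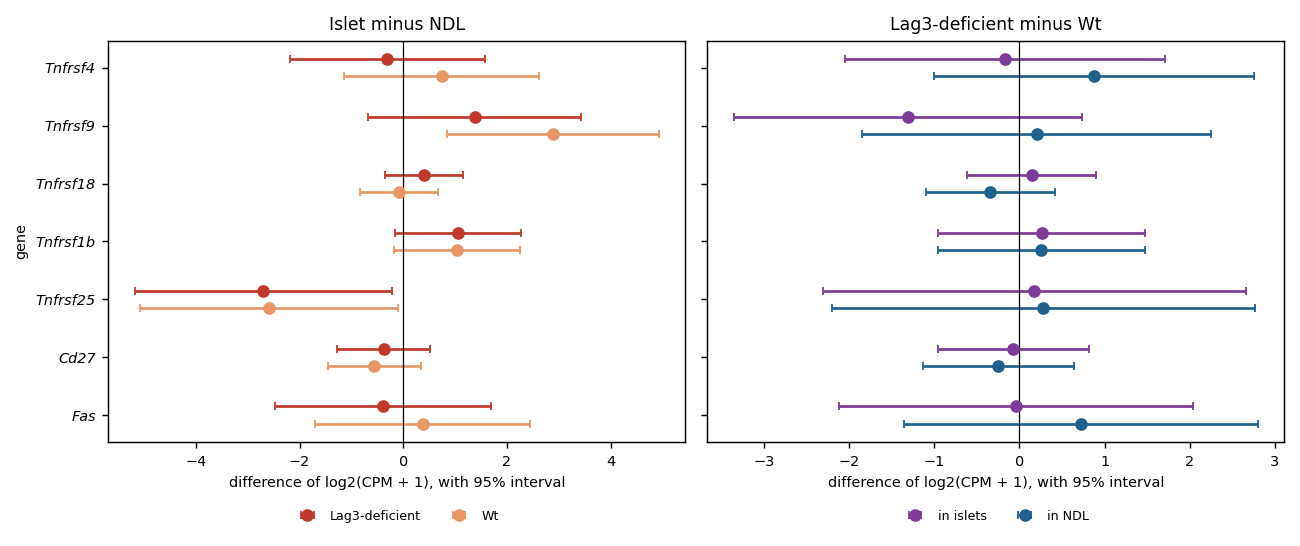
Difference of log2(CPM + 1) for each receptor with its 95% interval (limma): islet minus NDL in Lag3-deficient and in Wt Tregs on the left, Lag3-deficient minus Wt in islets and in NDL on the right. On the left the intervals of Tnfrsf25 in both genotypes and of Tnfrsf9 in Wt Tregs leave out 0, and on the right each interval includes it.

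The 7 receptors differed in how far libraries of a group spread. Residual SDs were 0.31 for Tnfrsf18, 0.40 for Cd27 and 0.57 for Tnfrsf1b, against 1.52 for Tnfrsf9, 1.58 for Fas, 1.60 for Tnfrsf4 and 1.81 for Tnfrsf25. The median over all tested genes was 1.26. Of the 1350 genes within 0.5 log2 units of Fas 107 had a larger SD, as did 147 of 1373 near Tnfrsf9 and 199 of 1607 near Tnfrsf25. The SE of a difference between a pair of groups was 0.36 for Tnfrsf18, 0.90 for Tnfrsf4 and 1.19 for Tnfrsf25. These SEs do not follow from the residual SDs alone, because limma moderates each variance toward that of genes of like level. They are wider than the gene's own spread would give for Tnfrsf18, and narrower for Tnfrsf4 and Tnfrsf25.

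**Figure D3:**
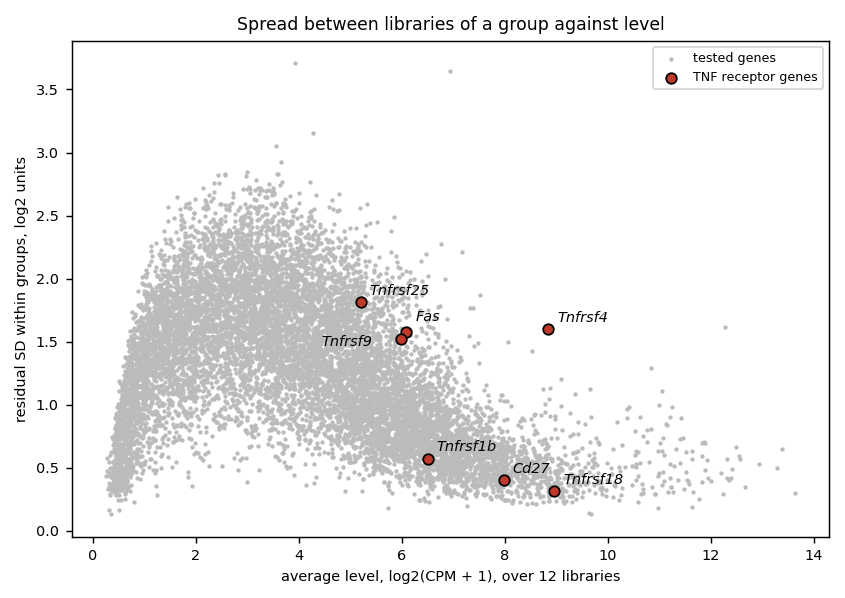
Residual SD within groups (log2 units) against average level (log2(CPM + 1)) for the 10868 tested genes in grey and the 7 receptors in red. Tnfrsf4, with a residual SD of 1.60, stands above the genes of its level, while Tnfrsf18, Cd27 and Tnfrsf1b lie in the lower part of the cloud.

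Deviations from the group mean ran together for some receptors. Across the 12 libraries, Pearson's r of these deviations was 0.90 for Tnfrsf9 with Fas, 0.70 for Tnfrsf4 with Tnfrsf9 and 0.62 for Tnfrsf4 with Fas. Without removing group means r was 0.65, 0.57 and 0.63, and the rank correlation (Spearman) was 0.46, 0.36 and 0.63. Tnfrsf25 and Cd27 had an r of 0.70 (0.78 without removing group means, with a rank correlation of 0.63). The libraries share their scaling and unknown depths, and these values are a description without a test. In Lag3-deficient NDL library 1b, Tnfrsf4 lay 2.14, Tnfrsf9 2.92 and Fas 3.15 log2 units below the group mean, and the same library gave Tnfrsf18 0.22 below it. That library had 789 tested genes at 0, against 399 and 474 in libraries 1a and 2 of its group. Lag3-deficient islet library 2 had the most, 927. Values of r without Lag3-deficient NDL library 1b were not computed, and the part of such zeros in the deviations was not tested. Neighbouring genes did not move as 1: Tnfrsf4 and Tnfrsf18 had an r of 0.42.

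**Figure D4:**
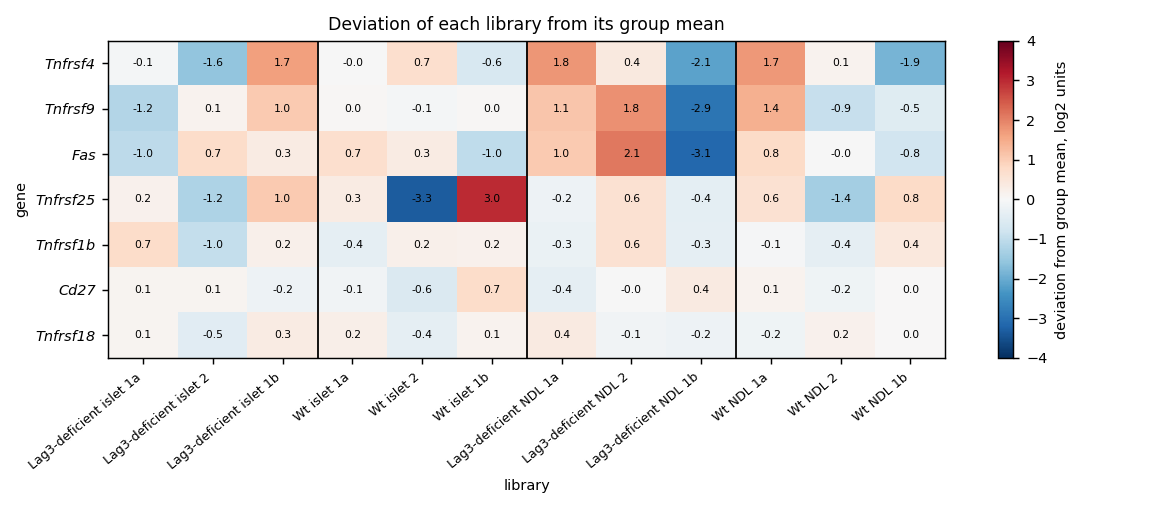
Deviation of each library from its group mean, in log2 units, for the 7 receptors (rows) in the 12 libraries (columns, with lines between groups). In Lag3-deficient NDL library 1b the cells of Tnfrsf4, Tnfrsf9 and Fas are all blue, at -2.14, -2.92 and -3.15, and the Tnfrsf18 row stays within 0.5 of 0.

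Among 5417 tested genes whose average log2 level was 4 or more, those most like each receptor over the 12 libraries were named by Pearson's r. They were picked from the top of 5417 correlations over only 12 libraries, a search that yields high values by itself. The values are a description without a test. Ubb, a polyubiquitin gene, had an r of 0.97 with Tnfrsf4, followed by Ppp1ca (0.93). Ubb was highest in Lag3-deficient NDL library 1a, at 762 CPM, where Tnfrsf4 also peaked. Icos, another T cell costimulatory receptor, was nearest to Tnfrsf1b with an r of 0.94, ahead of Psma3 (0.93) and Taok3 (0.88). It lay at 1003, 232 and 456 CPM in Lag3-deficient islets and at 443, 426 and 593 CPM in Wt islets. In NDL Icos lay at 205, 332 and 173 CPM in Lag3-deficient and at 239.6, 157 and 323 CPM in Wt libraries. Nearest to Tnfrsf18 was Rftn1, a lipid raft protein gene, with an r of 0.95, then Rnf11 (0.82) and Pam16 (0.81). Among the nearest were Ercc6l2 and Rbck1 for Tnfrsf9 (0.92 and 0.90), Setd7, Zfp281 and Cyth1 for Tnfrsf25 (0.94, 0.89 and 0.86), Suclg1, Zfp945 and Zfp598 for Cd27 (0.85, 0.84 and 0.82) and Dad1 and Slc30a7 for Fas (0.89 and 0.87).

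Of the 8 ligand genes of these receptors, 5 could be tested, and 0 passed the threshold in any comparison. Their median averaged islet minus NDL was 0.22, against -0.043 over all tested genes, and 0.81 in Lag3-deficient and -0.37 in Wt Tregs. Lta encodes lymphotoxin alpha, a ligand of the TNF receptors. It stood at 81.4, 4.02 and 73.1 CPM in the Lag3-deficient islet group, then at 18.3, 19.95 and 65.8 CPM in the Wt islet group. In NDL it stood at 106, 106 and 313 CPM in Lag3-deficient and at 121, 129.6 and 246 CPM in Wt libraries. All 6 islet libraries lay below all 6 NDL libraries, as was so in either direction for 1.8% of all tested genes. The averaged difference was -2.34 ± 0.64 (interval -3.67 to -1.02, limma, adjusted p = 0.0977). It was -2.27 ± 0.50 with an adjusted p of 0.0224 in the second deposited table, the only alternative of the 22 tried that passed. Adjusted p-values (limma) were 0.18 without the 1b columns, 0.387 with no filter and 0.403 with a minimum fold of 1.5. Without Lag3-deficient islet library 2 the difference was -1.72.

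Tnfsf9, which encodes 4-1BB ligand, gave 1.51, 4.90 and 11.7 CPM in the Lag3-deficient islet group, then 27.3, 22.5 and 38.0 CPM in the Wt islet group. In NDL it gave 2.35, 0.126 and 0 CPM in Lag3-deficient and 14.6, 1.51 and 0 CPM in Wt libraries. The Wt islet libraries were the highest of the 4 groups for ligand and receptor alike. Averaged islet minus NDL was 2.50 ± 0.92 for Tnfsf9 (adjusted p = 0.27) and 1.20 ± 0.85 for Fasl, which encodes Fas ligand (adjusted p = 0.637, limma). Without the 1b columns these were 1.52 for Tnfsf9 and 0.76 for Fasl, and Fasl was 0.47 without Wt islet library 2 and 0.59 without Lag3-deficient islet library 1b. Tnfsf4, Tnfsf18 and Cd70, the ligands of OX40, GITR and CD27, were too low to be tested, with medians over the 6 islet libraries of 0.0744, 0 and 0 CPM and over the 6 NDL libraries of 0.0909, 0 and 0 CPM. Cd70 reached 18.8 CPM in 1 islet library and was at 0 in all NDL libraries.

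Other receptors of the superfamily were also measured. Of 21 listed, 10 could be tested and 0 passed, with a median averaged islet minus NDL of -0.041. The 3 with the smallest p for islet minus NDL averaged over genotypes were Tnfrsf13c, the BAFF receptor of B cells (2.03 ± 1.07, adjusted p = 0.493), Tnfrsf14, which encodes HVEM (-1.88 ± 1.04, adjusted p = 0.519), and Tnfrsf1a, which encodes TNF receptor type 1 (-1.68 ± 1.10, adjusted p = 0.602, limma). Tnfrsf1a lay between 0.165 and 31.5 CPM in islet libraries and between 0.435 and 34.3 CPM in NDL libraries.

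Downstream, all 15 TRAF and proximal adaptor genes were tested and 0 passed in any comparison, with a median of -0.28. Map3k7, which encodes the kinase TAK1, had -0.94 ± 0.68, Traf6 -0.76 ± 0.69 and the TRAF-binding Tank -0.47 ± 0.52 for averaged islet minus NDL. Map3k7 was at -0.19 without Lag3-deficient islet library 1b, Traf6 at -0.36 without Lag3-deficient islet library 1a and Tank at -0.15 without Wt NDL library 1b. Of 10 death receptor pathway genes, 10 were tested and 0 passed, with a median of -0.48. Bid, the BH3-only protein cut by caspase 8, had -2.25 ± 0.98 (adjusted p = 0.377), Xiap, a caspase inhibitor, -0.59 ± 0.46 and Dedd -0.99 ± 0.84 (limma).

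Among 14 NF-kB subunits, kinases and inhibitors, all tested, 1 rose in islets and 0 fell, averaged over genotypes (0.92% of all tested genes passed in either direction). The median was 0.19, against -0.043 over all tested genes. Tnfaip3 encodes A20, the NF-kB-induced deubiquitinase that restrains TNF receptor signalling. It stood at 793, 260.3 and 274 CPM in the Lag3-deficient islet group, then at 373, 382 and 97.8 CPM in the Wt islet group. In NDL it stood at 54.5, 48.3 and 0 CPM in Lag3-deficient and at 53.9, 13.7 and 69.8 CPM in Wt libraries. All 6 islet libraries lay above all 6 NDL libraries, and 1.8% of all tested genes did not overlap in either direction. Averaged over genotypes Tnfaip3 was higher in islets by 3.72 ± 0.79 (interval 2.06 to 5.37, limma, adjusted p = 0.023). Without Lag3-deficient NDL library 1b, where it is listed at 0, the difference was 2.77 ± 0.50 (adjusted p = 0.0111), and without all 1b columns 3.42 ± 0.49 (adjusted p = 0.0075). The call was lost without Lag3-deficient islet library 1a (adjusted p = 0.063), Wt islet library 1a (0.0757), Wt islet library 2 (0.0692) or Wt NDL library 2 (0.0782), with differences of 3.37 to 3.56.

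Nfkbia, which encodes the inhibitor IkB alpha and is itself an NF-kB target, had 852, 403 and 620.03 CPM in the Lag3-deficient islet group, then 634, 601 and 472 CPM in the Wt islet group. NDL libraries gave 227, 286 and 321 CPM in Lag3-deficient and 246, 167 and 418 CPM in Wt Tregs. Within each genotype islet libraries lay above NDL libraries. Libraries did not overlap, in either direction, for 12.7% of all tested genes in Lag3-deficient and 14% in Wt Tregs. The averaged difference was 1.12 ± 0.29 (interval 0.51 to 1.73, limma, adjusted p = 0.0796). Rela, the p65 subunit, had -1.13 ± 0.52 (adjusted p = 0.425). Between genotypes 0 of the 14 genes passed. For NDL comparisons of genotype, libraries did not overlap for 7.53% of all tested genes and for 0 of the 7 receptors.

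Markers of other cells differed between tissues to unlike degrees, most clearly those of exocrine pancreas. The summed level of 15 exocrine pancreas markers lay between 34.1 and 612 CPM in Lag3-deficient islet libraries and between 195 and 3123 CPM in Wt islet libraries. It lay between 0 and 1.07 CPM in Lag3-deficient NDL libraries and between 0.242 and 4.91 CPM in Wt NDL libraries. Of 13 tested, 8 rose in islets averaged over genotypes, where 0.92% of all tested genes passed in either direction. In all libraries of the group, 12 of the 15 were at 0 in Lag3-deficient NDL and 8 in Wt NDL, with Cpa1 and Ctrb1 among both.

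The 12 B cell markers summed to between 336 and 1027 CPM in Lag3-deficient islet libraries and between 664 and 1598 CPM in Wt islet libraries. Their sum lay between 119 and 236 CPM in Lag3-deficient NDL libraries and between 60.5 and 173 CPM in Wt NDL libraries. Of 10 tested, 2 rose in islets averaged over genotypes, where 0.92% of all tested genes passed in either direction. Pax5, which defines B cells, was at 0 in every library. Igj had a median of 329 CPM in islet and 0.098 CPM in NDL libraries, and Cd74 had 201 and 47.4 CPM. By their medians Cd79b (21.9 CPM in islet and 35.1 CPM in NDL libraries) and Cd22 (0.623 and 2.06 CPM) went the other way. The 10 CD8 and NK markers summed to between 70.3 and 443 CPM in Lag3-deficient and 219.8 and 409 CPM in Wt islet libraries, and between 55.1 and 115 CPM in Lag3-deficient and 21.5 and 29.6 CPM in Wt NDL libraries. Of 4 tested, Nkg7 alone rose in islets, with a median of 357 CPM (50.7 to 439.5) in islet and 35.3 CPM (19.1 to 104) in NDL libraries. The other 9 had islet medians of at most 2.20 CPM, that of Cd8a. Cd8b1 had a median of 0.0684 CPM in islet and 1.46 CPM in NDL libraries, and Gzmk was at 0 in all NDL libraries.

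Of the 12 myeloid markers 11 are in the table, with sums between 13.3 and 51.9 CPM in Lag3-deficient and 34.8 and 188 CPM in Wt islet libraries, and between 0.192 and 39.9 CPM in Lag3-deficient and 0.424 and 18.1 CPM in Wt NDL libraries. Of 4 tested 0 passed, and C1qb was at 0 in all NDL libraries. The 13 endocrine markers summed to between 3.14 and 38.4 CPM in Lag3-deficient and 10.2 and 234 CPM in Wt islet libraries, and between 0.0479 and 0.449 CPM in Lag3-deficient and 0 and 0.969 CPM in Wt NDL libraries. Of 2 tested 0 passed, and Iapp was at 0 in all NDL and all Lag3-deficient islet libraries. The 12 markers of stroma and endothelium summed to between 911 and 1209 CPM in Lag3-deficient and 933 and 1765 CPM in Wt islet libraries, and between 645 and 1474 CPM in Lag3-deficient and 1066 and 1411 CPM in Wt NDL libraries, with 0 of 3 tested past the threshold. This sum was mostly Vim, which T cells also express, at 876 to 1735 CPM in islet and 589 to 1421 CPM in NDL libraries. Of the others, Pecam1 had a median of 18.0 CPM in islet and 54.2 CPM in NDL libraries, and the other 10 had medians of at most 2.07 CPM in either tissue. The part of such cells in the islet values of Tnfrsf1b, Tnfrsf9, Tnfsf9, Tnfrsf13c and Tnfaip3 was not tested.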

How the data were processed

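The authors deposited 2 gene tables. The first holds a signal, whole-number counts that they had rescaled to nearly equal totals. The deposited second table holds 10317 of the genes as a normalized signal, and all 7 receptors are in it. TopHat2, DESeq2 and mm10 are named in the submitters' processing notes, with no version or role. The sources used here name no library kit or strand setting. Depth is unknown for most libraries, and no counting intervals are given. The rescaled counts per read were estimated from which whole numbers occur among low values, and were not checked against reads. By that estimate 1 read is worth 2.79 rescaled counts in Lag3-deficient islet library 2, 1.58 in Wt NDL library 2 and 1.11 in Lag3-deficient NDL library 1b.

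Rescaled counts were scaled by trimmed means of log ratios (trimming 30% of ratios and 5% of levels) and tested as log2(CPM + 1) with limma 3.58.1 in R 4.3.3, with a mean-variance trend and the 4 groups as terms (8 residual degrees of freedom). Such fold changes understate those of low genes, and SEs, intervals and p-values rest on variances moderated toward the trend. A gene was tested if 3 or more libraries held 10 or more rescaled counts of it, and p-values were adjusted (Benjamini-Hochberg) over all 10868. The procedure was also run on simulated counts, whose spread was not matched to that of these libraries, so no error rate is drawn from them. Named were all 7 receptors, in each pathway list the genes past the threshold and the 3 with the smallest p for averaged islet against NDL, and the 3 genes most like each receptor, of which some are not reported here. The receptors, lists and tests were chosen with earlier results of these data known. Alternatives were another scaling, 2 other filters, 2 other pseudocounts (0.1 and 5), voom weights, the second table, a minimum fold of 1.5, the tag 1a, 2 or 1b as a block, and leaving out libraries. Gene positions are from GENCODE on GRCm38, promoters from RefSeq on GRCm38.p6.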

Additional observations from a re-analysis of the deposited data

How the results depend on the processing

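The count of receptors past the adjusted threshold was 0 in all 7 comparisons under every alternative run, except that it ranged from 0 to 1 for averaged islet against NDL when single libraries were left out (1, Tnfrsf25, without Wt islet library 1b). Of 924 alternative values of 42 receptor differences, 77 had the other sign, all of differences that had not passed, and the cause was not tested. Depth is unknown for most libraries and limits the precision of low values such as those of Tnfrsf25.

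Tissue differences that changed sign when single libraries were left out ranged, in Lag3-deficient Tregs, from -1.38 to 0.57 for Tnfrsf4, -0.084 to 2.29 for Tnfrsf9 and -1.97 to 0.66 for Fas. In Wt Tregs they ranged from -0.19 to 1.56 for Tnfrsf4, -0.21 to 0.10 for Tnfrsf18 and -0.012 to 0.83 for Fas, and averaged from -0.32 to 0.65 for Tnfrsf4 and -0.80 to 0.52 for Fas. Genotype differences in islets ranged from -0.99 to 0.61 for Tnfrsf4, -0.043 to 0.37 for Tnfrsf18, -0.11 to 0.74 for Tnfrsf1b, -1.50 to 1.74 for Tnfrsf25, -0.36 to 0.40 for Cd27 and -0.44 to 0.48 for Fas. In NDL they ranged from -0.053 to 1.95 for Tnfrsf4, -0.71 to 1.66 for Tnfrsf9, -0.055 to 0.46 for Tnfrsf1b, -0.40 to 0.67 for Tnfrsf25 and -0.33 to 2.30 for Fas. The difference between the genotype effects ranged from -0.37 to 0.45 for Tnfrsf1b, -1.78 to 1.44 for Tnfrsf25, -0.12 to 0.62 for Cd27 and -2.34 to 0.29 for Fas.

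Without the 1b columns the sign changed for Tnfrsf9 in Lag3-deficient tissue (-0.57), for the averaged tissue differences of Tnfrsf4 (-1.05) and Tnfrsf18 (-0.030), for the islet genotype difference of Cd27 (0.54) and for the difference of genotype effects of Tnfrsf1b (-0.31) and Tnfrsf25 (0.34). In the second table it changed for averaged Tnfrsf4 (-0.023) and Tnfrsf18 (-0.10), for Cd27 (0.015) and Fas (0.10) between genotypes in islets, and for the difference of genotype effects of Tnfrsf25 (0.42). With size factors of the median-ratio kind (RLE) it changed for averaged Fas (0.026), for Tnfrsf4 (0.067), Cd27 (0.17) and Fas (0.20) between genotypes in islets, and for the difference of genotype effects of Tnfrsf25 (0.055). This scaling moved the median of all genes to -0.031, against -0.22, for Lag3-deficient minus Wt in islets, and to -0.029, against -0.15, for islet minus NDL in Lag3-deficient Tregs. A pseudocount of 0.1 did so for averaged Fas (0.0048) and the difference of genotype effects of Tnfrsf25 (0.32), a pseudocount of 5 for Tnfrsf25 between genotypes in islets (-0.22), and voom weights for Fas between genotypes in islets (0.051) and for the difference of genotype effects of Tnfrsf1b (-0.085) and Tnfrsf25 (0.21).

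Tnfaip3 kept its direction, and its call was lost with no filter (adjusted p = 0.25), a pseudocount of 0.1 (0.103), voom weights (0.0667) and a minimum fold of 1.5 (0.0874, all limma). Nfkbia passed with RLE scaling (adjusted p = 0.0405), voom weights (0.0439), without Lag3-deficient islet library 2 (0.0381) and without Wt NDL library 1b (0.0454). Tnfsf9, which did not pass, ranged from 1.40 (pseudocount 5) to 4.59 (voom weights). Of other list genes that did not pass, Rela was at -0.69 without Lag3-deficient islet library 1a, Dedd at -0.50 without Wt islet library 2 and Tnfrsf13c at 1.22 without Lag3-deficient islet library 2. Without the 1b columns Map3k7 was at -0.039, Tnfrsf14 at -2.95, Tnfrsf1a at -3.57 and Xiap at -1.08.

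Counts of all genes past the threshold for islet against NDL in Lag3-deficient, Wt and averaged Tregs were 13, 20 and 100. They were 23, 54 and 151 with voom weights, 26, 24 and 133 with RLE scaling, 31, 26 and 138 in the second table, 7, 11 and 40 with no filter, 10, 10 and 28 with a minimum fold of 1.5, and 24, 8 and 45 without the 1b columns. Leaving out Lag3-deficient islet library 1b gave 32, 16 and 104, and 16 genes in place of 0 for Lag3-deficient against Wt in islets. Leaving out Wt islet library 1a gave 9, 9 and 65.

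With the column's tag (1a, 2 or 1b) as a replicate block, 12, 11 and 90 genes passed and 0 of the 7 receptors did. Deviations of libraries of the same tag had correlations of -0.086 to 0.157. Pairs of different tags were not compared, so these values cannot tell whether the tags pair the samples. The headers give 1a and 1b the same number, and pairs of 1a with 1b were not compared either.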
